A study of Rattus norvegicus with 12 samples.

Results

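Gene expression in 4 liver samples of rats fed a diet with added leucine was compared with that in 4 liver samples of rats fed a casein control diet, as leucine minus casein across all genes measured. The members are these 8 arrays, taken by the diet in the labels, of 12 arrays in the series. The other 4 arrays are of rats fed a complete dairy diet, with skim milk powder as the protein source. Unless named, they enter only the fit's spread between samples, the mean signals by which probe sets were chosen, and the centring of list means. All rats were male, diet-induced obese Sprague-Dawley rats, fed from 12 weeks of age for 8 weeks and so 20 weeks old at the end. All diets were high in fat and sucrose, held 4.6 kcal per g, were eaten at will and gave 10% of energy as protein. The casein diet gave all of it as casein, and the leucine diet gave 7.1% of energy as casein and 2.9% as leucine. Added leucine and less casein therefore cannot be told apart in this comparison. Each liver sample's total RNA was read on 1 whole-transcript rat array from Affymetrix (Rat Gene 1.0 ST), and every value below is a log2 signal of 1 probe set or a difference of such signals.

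Leucine is a branched-chain amino acid that the body cannot make. The liver has little of the aminotransferase that starts its breakdown, so muscle and other tissues take the first step, and the branched-chain keto acid dehydrogenase complex, held in check by the kinase Bckdk, commits the carbon to oxidation. Leucine also signals: bound to sestrins it releases the mTORC1 kinase, which raises protein synthesis and above all the translation of mRNAs for ribosomal proteins, while a shortage of any amino acid acts through the kinase Gcn2 and the transcription factor ATF4. Surplus amino acid nitrogen is turned into urea in the liver.

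Arrays correlated as highly between the diets as within them. Correlations of log2 signals, over 15310 probe sets with exactly 1 gene symbol, ran from 0.950 to 0.987 between a casein and a leucine array, from 0.954 to 0.990 within casein and from 0.959 to 0.986 within leucine. The first principal component of the 8 arrays held 44.4% of the variance and set casein replicates 1 and 2 and leucine replicates 1 and 2 against casein replicate 3 and leucine replicates 3 and 4, so it did not separate the diets. Casein replicate 4 had the narrowest spread of signals of the 8 arrays (SD 2.14 over probe sets). The hepatocyte products Alb, Ttr and Apoa1 had signals of 13.53 to 14.08, 13.03 to 13.70 and 12.35 to 13.29 over the 8 arrays, while the pancreatic protease Prss1 and the muscle actin Acta1 did not exceed 4.39 and 5.65. Of 15 hepatocyte markers 14 were measured, with a median difference between the diets of -0.062.

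No gene changed past the threshold. limma called 0 of 15310 probe sets (0%) at an adjusted p under 0.05, and the smallest adjusted p was 0.120. At an unadjusted p under 0.05, 507 probe sets (3.31%) were counted, fewer than the 765.5 that 5% of all tests would give. Of these, 213 (1.39%) were higher and 294 (1.92%) lower with leucine. After centring each array on its median the split was 307 higher and 206 lower, and after quantile normalization 285 higher and 305 lower, so the balance of directions depended on the scaling. Over 14506 genes, each taken by its probe set with the highest mean signal, the median difference was -0.031 (-0.015 after quantile normalization and -0.003 after centring), and the 5th and 95th percentiles of the differences were -0.392 and 0.323. Adding the replicate number as a block over all 12 arrays gave 0 called probe sets and 591 at an unadjusted p under 0.05. The block over the 8 arrays, added after seeing the data, gave 1 called probe set, Acsm5, and 894 at that p. The genes named next are the 12 each way with the smallest unadjusted p whose 4 leucine arrays lay all on one side of the 4 casein arrays, among probe sets brighter than the median one. Such separation held for 1.06% of probe sets upward and 1.38% downward.

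The gene with the smallest p was Rps15a, which codes for a component of the ribosome's small subunit. Its signal was 6.37, 6.70, 6.52 and 6.78 in casein replicates 1 to 4 and 8.20, 7.50, 7.84 and 8.22 in leucine replicates 1 to 4. Every leucine array stood above every casein array, which the choice of leading genes required. The difference was 1.35 ± 0.192 (SE), or 2.54-fold, with a limma adjusted p = 0.120. All 6 probe sets of Rps15a were higher and without overlap, by 0.837 to 1.35, and 1 other of them shared that adjusted p. The remaining 23 leading genes each had a limma adjusted p = 0.999. Prdx6, a peroxiredoxin that reduces lipid peroxides, stood at 8.90, 8.85, 8.49 and 9.26 with casein and 9.84, 9.58, 9.53 and 9.86 with leucine. That is 1.77-fold higher (0.83 ± 0.183 SE), and the lowest leucine array exceeded the highest casein array. Cox7a2l, an assembly factor of respiratory supercomplexes, had signals of 8.62, 8.21, 8.09 and 8.82 against 9.35, 9.01, 9.01 and 9.01. Chchd2l3, whose symbol places it with the mitochondrial Chchd2 family, was higher by 0.76 ± 0.199 (SE), and its second probe set by 0.51.

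The other leading genes with higher signals were 4 further ribosomal protein genes and 4 with other roles. Rpl39 was higher by 0.78, Rpl17 by 0.61, Rpl23a by 0.57 and Rpl31 by 0.56. Arpc1a, a subunit of the Arp2/3 complex that nucleates branched actin, stood at 7.05 to 7.43 with casein and 7.63 to 7.89 with leucine. Rbis, a ribosomal biogenesis factor, differed by 0.48, the SNARE protein gene Stx8 by 0.46, and Trappc1, a subunit of the TRAPP tethering complexes of the Golgi, by 0.43. Of the 12 leading genes upward 5 thus code for ribosomal proteins, where 69 of 14506 genes are on the list of cytosolic ribosomal proteins. Each gene was ranked by its probe set with the smallest p. These 5 genes have 3 to 7 probe sets each, while 527 of the 14506 genes have more than 1, so they had more chances at a place.

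Among the leading genes with lower signals, Acsm5, a mitochondrial acyl-CoA synthetase for medium-chain fatty acids, had the widest difference. Its signals were 8.72, 8.76, 7.69 and 8.75 in casein replicates 1 to 4 and 6.51, 7.15, 5.83 and 6.41 in leucine replicates 1 to 4. Casein replicate 3 stood apart from the other casein arrays, and the groups did not overlap. The difference was -2.0 ± 0.476 (SE), 4.01-fold lower with leucine, with a limma adjusted p = 0.999, and with the replicate number as a block over the 8 arrays the adjusted p = 0.0362 (SE 0.174). The difference ranged from -2.27 without casein replicate 3 to -1.79 without leucine replicate 3. Lzic stood at 6.29, 6.15, 6.59 and 6.01 with casein and 5.39, 5.81, 5.45 and 5.38 with leucine (-0.75 ± 0.168 SE). Icmt, which methylates prenylated proteins such as Ras, differed by -0.62 ± 0.139 (SE), and Rhog by -0.71 ± 0.161 (SE).

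The remaining 8 lower genes differed by -0.78 to -0.47. Sirt7, a nucleolar deacetylase of the sirtuin family, stood at 7.64, 7.16, 7.48 and 7.56 with casein and 6.42, 7.13, 6.70 and 6.49 with leucine, so leucine replicate 2 came close to the lowest casein array. Fis1, a receptor of mitochondrial fission, lay between 8.93 and 9.13 with casein and between 8.26 and 8.83 with leucine (-0.54). Use1, a SNARE of traffic from the Golgi to the endoplasmic reticulum, differed by -0.55, the ubiquitin ligase gene Trim65 by -0.50, the zinc transporter gene Slc39a13 by -0.55, and Shfl, an interferon-induced inhibitor of ribosomal frameshifting, by -0.47. Tceal8 (-0.72) and Asb8 (-0.49) complete the set. Set against the dairy arrays instead, Trim65 and Shfl differed by -0.59 ± 0.132 and -0.49 ± 0.133 (SE; limma adjusted p = 0.604 and 0.657), and Lzic by 0.05. Both comparisons share the leucine arrays.

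**Figure D1:**
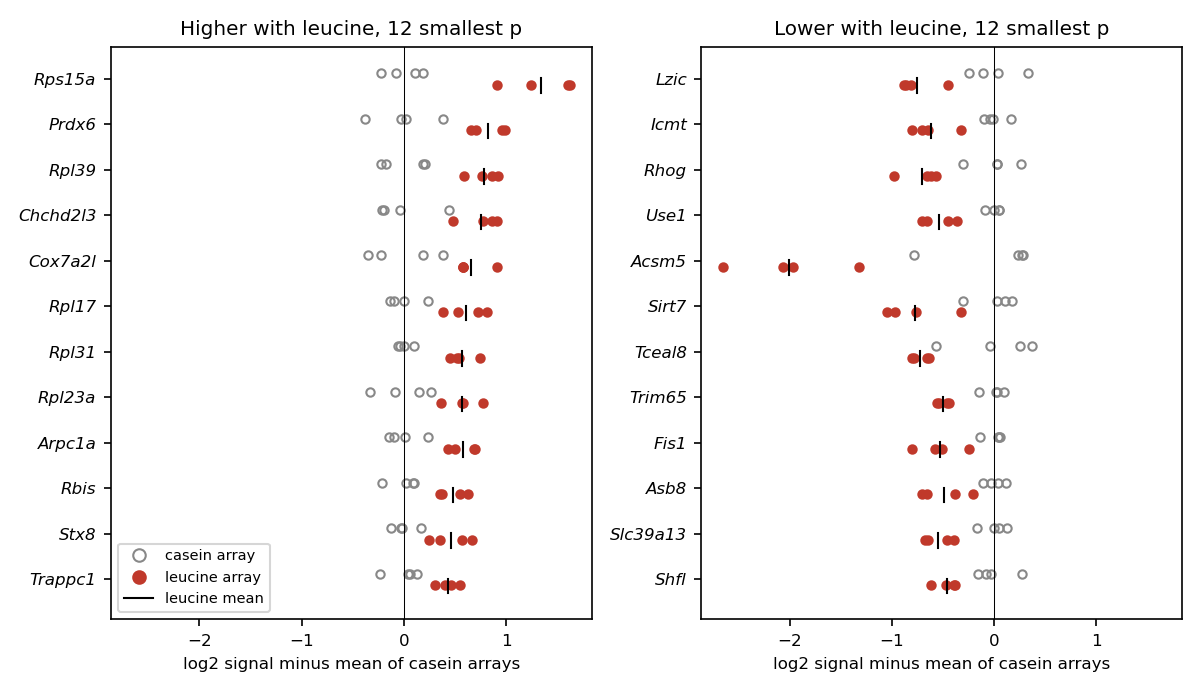
Log2 signals of the 12 leading genes each way, less the mean of the casein arrays, with an open point for each casein array, a filled point for each leucine array and a bar at the leucine mean. The genes were chosen so that the 4 leucine points lie all above or all below the 4 casein points. Acsm5 (-2.0) and Rps15a (1.35) have the widest differences.

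Ribosomal protein genes made up the group with most members at a small p. Of 79 listed genes 69 were measured, by 1 probe set each, and 49 had higher and 20 lower signals with leucine, where 43.2% of all genes had a higher signal. At an unadjusted p under 0.05, 18 were higher (26.1%, against 1.08% of all genes) and 1 was lower (1.45%, against 1.92%), while 0 passed limma's adjusted threshold. The leucine arrays lay all above the casein arrays for 10 members (0.827% of all genes) and all below for 2 (1.39% of all genes). The median difference was 0.182 over the list and -0.031 over all genes, and it stayed between 0.138 and 0.210 when any 1 array was left out. The count of 18 was 10 without casein replicate 1 and 24 without casein replicate 4. The mean of the list's members, each centred on its mean over the 12 arrays, was -0.23, -0.22, -0.16 and -0.15 in casein replicates 1 to 4 and 0.05, -0.13, 0.02 and 0.06 in leucine replicates 1 to 4. The lowest leucine array, replicate 2, lay just above the highest casein array.

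Several members of the large subunit were read by more than 1 probe set. Rpl39 stood at 7.37, 7.42, 7.80 and 7.78 with casein and 8.35, 8.18, 8.46 and 8.52 with leucine. All of its 7 probe sets, 4 of them with distinct values, were higher without overlap, by 0.783 to 0.851. Rpl17 stood at 9.77, 10.15, 9.82 and 9.92 against 10.44, 10.29, 10.64 and 10.73, and its 3 probe sets agreed in direction (0.573 to 0.627). Rpl31 lay between 9.04 and 9.20 with casein and between 9.56 and 9.85 with leucine. Of its 7 probe sets 6 were higher without overlap, and 1, the dimmest, differed by -0.43. Rpl23a was higher in all 6 probe sets, without overlap in 1. Near-identical copies and pseudogenes of these genes are common, so the copy that a probe set reads is uncertain, and probe sets of 1 gene are not independent.

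Of the small subunit, 6 members (Rps7, Rps9, Rps14, Rps15a, Rps19 and Rps29) were higher and 0 lower at an unadjusted p under 0.05. Over all genes, 1.08% were higher and 1.92% lower at that p. Rps29 stood at 11.16, 11.26, 11.58 and 12.28 with casein and 12.48, 12.20, 12.31 and 12.09 with leucine (0.70 ± 0.228 SE, limma adjusted p = 0.999). Casein replicate 4 lay within the leucine range. Rps19, by its brightest probe set, differed by 0.63 ± 0.262 and Rps9 by 0.45 ± 0.162 (SE). Rps3, with an unadjusted p above 0.05, had a lower mean with leucine, at 12.48, 12.21, 12.23 and 10.98 with casein and 11.58, 11.50, 11.19 and 11.39 with leucine (-0.56 ± 0.272 SE), where casein replicate 4 alone lay below the leucine arrays and the other casein arrays lay above them. Rps6, the ribosomal protein that mTORC1's kinase S6K1 phosphorylates, stood at 10.49 to 11.28 with casein and 10.56 to 10.84 with leucine (-0.29 ± 0.163 SE). Rpl13a of the large subunit was the member lower at an unadjusted p under 0.05, with a difference of -0.29 ± 0.118 (SE), between 10.45 and 10.66 with casein and between 10.20 and 10.34 with leucine.

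**Figure D2:**
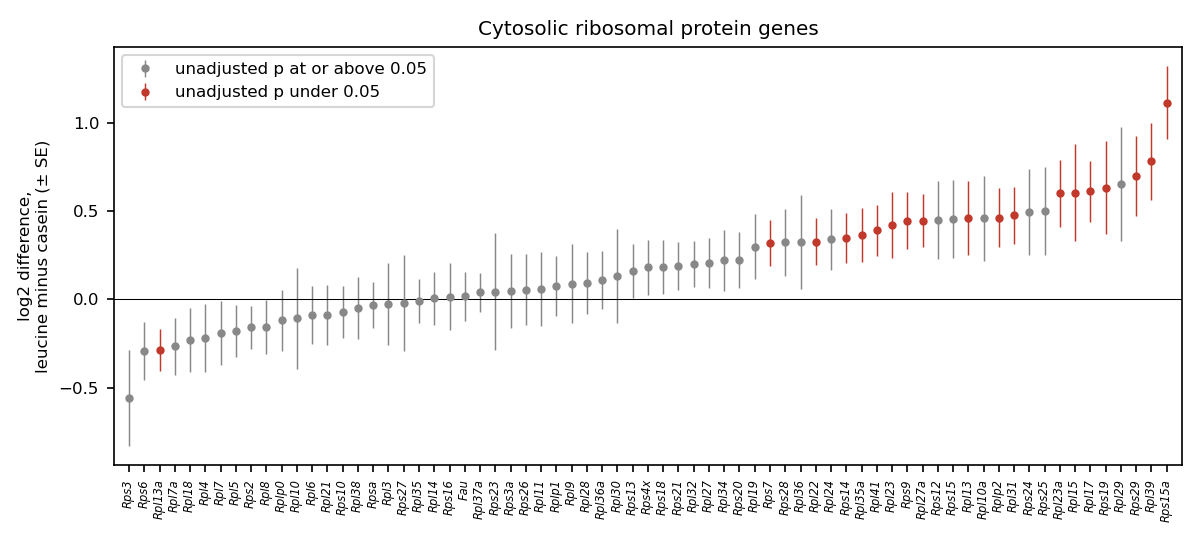
Differences of log2 signal, leucine minus casein, for the 69 measured cytosolic ribosomal protein genes in order of size, with bars of 1 SE from limma. Most points lie above 0, Rps15a at the top (1.12 by its brightest probe set), and Rps3 (-0.56) is the lowest.

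Transcripts of ribosomal proteins start with a run of pyrimidines through which mTORC1 controls their translation, so the start sites of 4 members with higher and 2 with lower mean signals are shown, with and without the motif named next. Each window runs from 15 bases before to 15 bases from the annotated start in RefSeq's GRCr8 assembly, 5′ to 3′ on the gene's strand, and capitals mark the motif CTTTC.
Rps15a: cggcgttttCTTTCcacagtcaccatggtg
Rpl31: ccacaatccctcgcgcCTTTCCTTTCcaac
Rps19: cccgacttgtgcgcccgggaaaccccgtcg
Rpl39: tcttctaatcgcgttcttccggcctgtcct
Rps3: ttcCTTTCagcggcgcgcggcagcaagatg
Rps6: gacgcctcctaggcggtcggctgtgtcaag
The windows lie at chr1:181860270-181860299 (minus strand), chr9:49143096-49143125 (plus), chr1:89608673-89608702 (plus), chrX:121195882-121195911 (minus), chr1:163195762-163195791 (minus) and chr5:106420526-106420555 (minus). Rps15a and Rpl31, higher with leucine at an unadjusted p under 0.05, hold the motif, and so does Rps3, with a lower mean. In Rps15a and Rps3 the marked letters lie before the annotated start, and in Rpl31 after it. Rps19 and Rpl39, also higher at that p, do not, nor does Rps6, though a short run of other pyrimidines follows the annotated start of Rpl39. CTTTC stood in the sense strand of 993 of 27457 such windows (3.62%) and, as GAAAG, in 1034 (3.77%). Windows were found for 59 of the measured ribosomal protein genes, and 25 of them (42.4%) held it in sense and 1 in antisense. It was present in 10 of 15 with a higher signal at an unadjusted p under 0.05 and in 15 of the other 44. These are matches of letters anywhere in the window, on either side of the start. They do not show which transcripts start with a run of pyrimidines, and the annotated start can differ from the one used in liver.

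Against the dairy arrays the list's median had the opposite sign, though not every member did. Rpl23, Rpl29 and Rpl15 differed from casein by 0.42, 0.65 and 0.61 and from dairy by 0.14, 0.09 and 0.01. The median difference, leucine minus dairy, was -0.178 over the list and -0.013 over all genes. At an unadjusted p under 0.05, 17 members were lower (24 after quantile normalization and 9 after centring; 2.99% of all genes) and 0 were higher. The list's per-array means were 0.28, 0.18, 0.01 and 0.30 with dairy, above the leucine arrays in 3 of 4. Rps15a had dairy signals of 8.49, 8.10, 8.73 and 8.43, and leucine minus dairy was -0.50 ± 0.192 (SE, limma adjusted p = 0.669). Rpl41 stood between casein and dairy too, with a difference of 0.39 ± 0.146 from casein and of -0.68 ± 0.146 from dairy (SE, limma adjusted p = 0.604 for the latter). The count of 17 was 5 without leucine replicate 2, 7 without dairy replicate 1, 11 without dairy replicate 4 and 11 without leucine replicate 1. limma called 0 probe sets between leucine and dairy at an adjusted p under 0.05, and at an unadjusted p under 0.05 3.65% of probe sets were higher and 3.3% lower.

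Erythroid markers, which can come with blood left in the tissue, also had a higher median with leucine, though not in every array. Of 15 listed markers 10 were measured, 9 were higher with leucine (43.2% of all genes), and 2 (Hbb-b1 and Hbb, the beta globins) were higher at an unadjusted p under 0.05 (20%, against 1.08% of all genes). Both had a limma adjusted p = 0.999. Hbb-b1 stood at 8.47, 9.07, 8.48 and 8.74 with casein and 9.53, 8.84, 11.08 and 10.28 with leucine. The marker mean was -0.41 to -0.17 over the casein arrays and 0.03, -0.41, 1.11 and 0.21 over leucine replicates 1 to 4. The median difference of the markers was 0.360, and 0.127 without leucine replicate 3. Leucine replicate 2, whose ribosomal protein mean was lowest among the leucine arrays, also had the lowest erythroid mean. Leucine replicate 3 had the highest erythroid mean but a ribosomal protein mean of 0.02, below replicates 1 and 4 (0.05 and 0.06). In dairy replicates 1 to 4 the erythroid means were -0.02, 0.20, -0.08 and -0.02 and the ribosomal protein means 0.28, 0.18, 0.01 and 0.30. Without leucine replicate 3 the ribosomal protein median was 0.147, and 12 members were higher at an unadjusted p under 0.05. The part of blood in the ribosomal protein differences was not tested. In whole tissue, fewer cells of a type and less RNA per cell cannot be told apart.

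Genes for leucine breakdown did not pass the test in either direction. Of 14 genes of the leucine branch and the steps shared by all branched-chain amino acids 13 were measured, with a median difference of -0.173. Leaving out casein replicate 4 gave -0.307, and leaving out casein replicate 1 gave -0.046. Of these 4 were higher and 9 lower, and 1 was lower at an unadjusted p under 0.05 (7.69%, against 1.92% of all genes). That member, Slc25a44, carries branched-chain amino acids into mitochondria. It stood at 7.60, 7.40, 7.41 and 6.80 with casein and 6.85, 6.90, 6.69 and 6.53 with leucine (-0.56 ± 0.213 SE, limma adjusted p = 0.999), and casein replicate 4 lay inside the leucine range. Bcat2, the mitochondrial aminotransferase, was dim in all 8 arrays, at 4.79 to 4.92 with casein and 4.74 to 5.0 with leucine (0.03 ± 0.122 SE).

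The dehydrogenase complex gave values on both sides of 0. Bckdha, its catalytic subunit, stood at 8.27 to 8.86 with casein and 7.98 to 8.74 with leucine (-0.18 ± 0.179 SE). Dbt, the transacylase core, differed by 0.30 ± 0.236 (SE), with leucine replicate 3 (8.15) below all casein arrays and the other leucine arrays at 8.99 to 9.46. Bckdk, the inhibitory kinase, stood at 8.15, 8.00, 7.07 and 7.90 with casein and 8.12, 7.90, 6.85 and 6.88 with leucine (-0.35 ± 0.319 SE). Its lowest values were those of casein replicate 3 and leucine replicates 3 and 4, the arrays that also lay together on the first principal component. The 13 measured genes of valine, isoleucine and propionate breakdown had a median of -0.014, with 6 higher, 7 lower and 0 at an unadjusted p under 0.05.

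The mTORC1 pathway was measured by 40 of 52 listed genes. Its median was -0.081 (-0.131 without casein replicate 4 and -0.021 without leucine replicate 3), with 12 higher and 28 lower, and 2 were lower at an unadjusted p under 0.05 (5%, against 1.92% of all genes). Itfg2, a subunit of the KICSTOR scaffold that holds the inhibitor GATOR1 at the lysosome, stood at 6.17, 5.70, 5.98 and 5.70 with casein and 5.03, 5.47, 5.55 and 5.32 with leucine, without overlap (-0.54 ± 0.156 SE, limma adjusted p = 0.999). Lamtor4, of the Ragulator complex that anchors the Rag GTPases, differed by -0.30 ± 0.126 (SE). Mtor itself differed by -0.03 (0.002 after centring) and Rps6kb1, the gene of S6K1, by -0.13, both less than 1 SE. Eif4ebp1, the translation repressor that mTORC1 inactivates, had the highest difference of the list, 0.58 ± 0.313 (SE), with casein replicate 4 (8.47) above all leucine arrays. The arrays measure mRNA, not the phosphorylation through which this pathway acts.

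**Figure D3:**
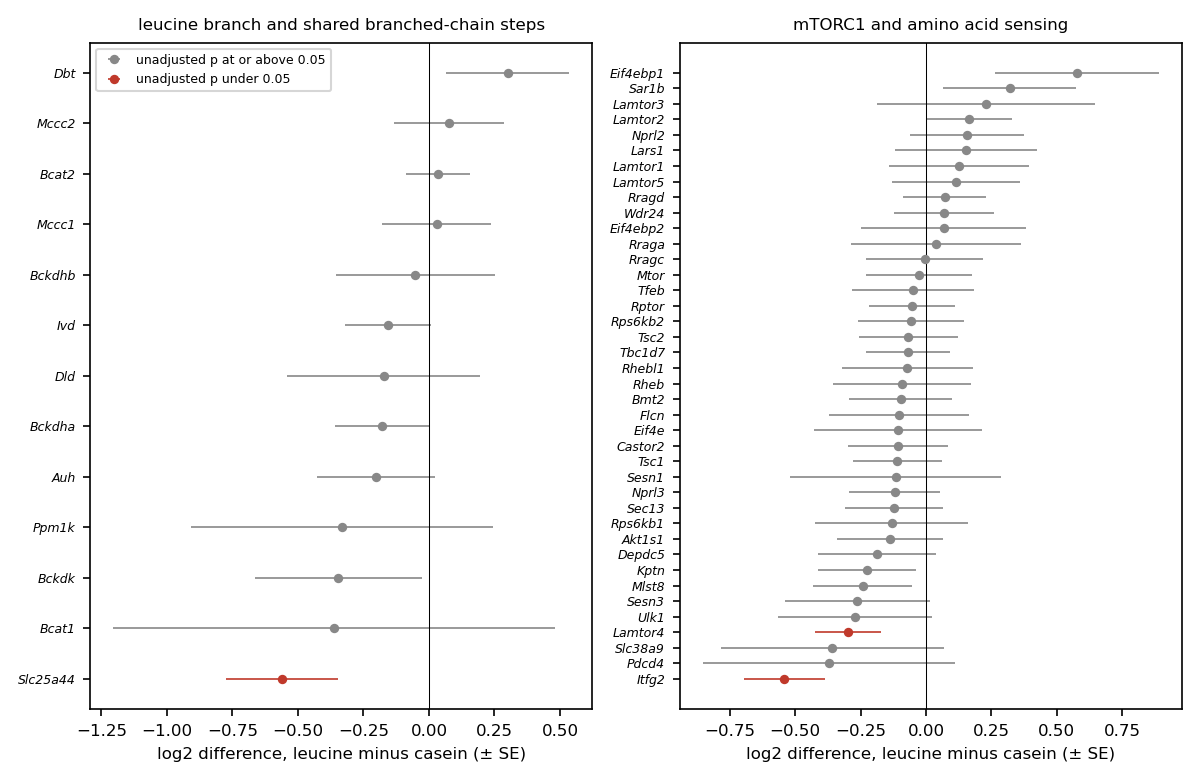
Differences of log2 signal, leucine minus casein, with bars of 1 SE from limma, for the measured genes of the leucine branch and shared branched-chain steps and of the mTORC1 and amino acid sensing list. Slc25a44 and Itfg2 have the lowest values of their lists (-0.56 and -0.54), and members of both lists lie on both sides of 0.

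Genes of the response to amino acid shortage centred near 0. Of 36 listed ATF4-related genes 35 were measured, with a median of 0.074, 21 higher and 14 lower, and 2 higher (5.71%, against 1.08% of all genes) and 1 lower (2.86%, against 1.92%) at an unadjusted p under 0.05. Without leucine replicate 4 the median was -0.042. Asns, the asparagine synthetase that ATF4 induces, differed by 0.18, Trib3, a pseudokinase induced by the same factor, by 0.24, and the hormone gene Fgf21 by -0.43 ± 0.777 (SE). Fgf21 ran from 4.94 to 7.87 over the casein arrays alone. The higher members were Cebpb, a transcription factor (0.84 ± 0.324 SE), and Ddit4, an inhibitor of mTORC1 (0.77 ± 0.350 SE, named after its values were seen). Cebpb stood at 7.41, 7.45, 7.96 and 8.97 with casein and 8.78, 8.55, 8.98 and 8.82 with leucine, so casein replicate 4 lay among the leucine arrays. Shmt2, the mitochondrial serine hydroxymethyltransferase, was lower without overlap, at 9.68 to 9.85 with casein and 9.25 to 9.51 with leucine (-0.35 ± 0.117 SE).

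Amino acid transporters (30 of 31 measured) had a median of -0.141, with 8 higher, 22 lower and 0 at an unadjusted p under 0.05. Without casein replicate 3 the median was -0.067. Slc38a2, the importer of small neutral amino acids SNAT2, was the member with the highest difference. It stood at 9.53, 9.90, 10.42 and 10.65 with casein and 11.06, 10.65, 10.61 and 10.95 with leucine (0.69 ± 0.335 SE, limma adjusted p = 0.999). Cytosolic aminoacyl-tRNA synthetases (22 of 23 measured) had a median of -0.014, and 0 members had an unadjusted p under 0.05.

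For genes of the urea cycle and amino acid degradation, the median difference from casein took either sign over left-out arrays. Of 52 listed genes 46 were measured. Against casein the median was -0.054 (0.078 without leucine replicate 3, 0.020 without casein replicate 1 and -0.168 without casein replicate 3), with 22 higher and 24 lower, 2 higher at an unadjusted p under 0.05 (4.35%, against 1.08% of all genes) and 0 lower. Gpt, the alanine aminotransferase, stood at 8.61, 8.01, 8.12 and 8.63 with casein and 9.05, 9.23, 8.37 and 8.79 with leucine (0.52 ± 0.228 SE). Otc, the ornithine transcarbamylase of the urea cycle, stood at 9.31, 9.33, 8.28 and 9.38 against 9.75, 9.77, 9.64 and 9.43 (0.57 ± 0.258 SE). Its leucine arrays all lay above the casein arrays, which casein replicate 3 extended downward. Cps1, the entry enzyme of the cycle, differed by -0.20, and the betaine methyltransferase Bhmt by -0.42 ± 0.206 (SE), with casein replicate 1 at 13.40 against 12.67 to 12.78 in the other casein arrays.

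Against dairy the same 46 genes had a median of 0.549, with all genes at -0.013. At an unadjusted p under 0.05, 22 were higher with leucine (3.72% of all genes) and 0 were lower, and 0 passed limma's adjusted threshold. The count lay between 16 and 27 when any 1 leucine or dairy array was left out. Gpt was higher than with dairy by 1.38 ± 0.228, Prodh, the first enzyme of proline breakdown, by 1.26 ± 0.291, and the ornithine aminotransferase Oat by 1.21 ± 0.271 (SE; limma adjusted p = 0.604 for each). Prodh and Oat differed from casein by -0.10 and -0.03. The leucine branch had a median of 0.381 against dairy. At an unadjusted p under 0.05, 4 of its members were higher (30.8%, against 3.72% of all genes) and 0 lower (2.99% of all genes). Both comparisons share the leucine arrays, so their values are only set side by side.

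Lipid synthesis genes varied widely between arrays of 1 diet. Fatty acid and triglyceride synthesis (29 of 31 measured) had a median of -0.295, with 6 higher, 23 lower and 0 at an unadjusted p under 0.05. Leaving out casein replicate 3 gave -0.504, and leaving out casein replicate 2 gave -0.157. Fasn, the fatty acid synthase, stood at 10.94, 11.42, 8.36 and 8.73 with casein and 10.23, 9.48, 8.18 and 7.39 with leucine (-1.04 ± 0.832 SE, limma adjusted p = 0.999). The casein arrays alone spanned from 8.36 to 11.42. Pnpla3, a lipase gene under control of the lipogenic factors, had the lowest difference of the list (-1.54 ± 1.51 SE), and Scd, the stearoyl-CoA desaturase, differed by -0.58. Insig1, which retains the SREBP complex in the endoplasmic reticulum, was higher by 0.71 ± 0.387 (SE) and by 0.69 in its second probe set. The list's per-array means were 0.82, 1.18, -0.39 and -0.46 with casein and 0.72, 0.39, -0.59 and -0.77 with leucine.

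Cholesterol synthesis (19 of 24 measured) had a median of -0.160, with 3 higher and 16 lower, and of 0.064 without leucine replicate 4 and -0.408 without leucine replicate 3. Fatty acid oxidation, ketogenesis and PPAR-alpha targets (40 of 47 measured) had a median of -0.054, with 0 members at an unadjusted p under 0.05. Plin2, which coats lipid droplets, stood at 9.84, 9.39, 7.95 and 8.85 with casein and 9.55, 7.91, 7.86 and 7.48 with leucine (-0.81 ± 0.532 SE). Cpt1a, which admits long-chain fatty acids to mitochondria, differed by -0.18. Lipoprotein and lipid droplet genes (31 of 37 measured) had a median of -0.007.

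Glucose metabolism gave few members at a small p. Gluconeogenesis (23 of 25 measured) had a median of 0.086 (-0.080 without leucine replicate 1), and 3 members were higher at an unadjusted p under 0.05 (13%, against 1.08% of all genes). These were Cebpb, Mpc1 and Nr4a1, the last named after its values were seen. Mpc1, of the mitochondrial pyruvate carrier, stood at 6.87, 7.20, 6.42 and 6.78 with casein and 7.92, 7.51, 7.08 and 7.14 with leucine (0.59 ± 0.222 SE). Leucine replicates 3 and 4 lay below casein replicate 2. Pck1, the rate-limiting enzyme, differed by -0.16, and the glucose-6-phosphatase gene G6pc1 by -1.84 ± 1.44 (SE), with signals from 4.83 to 12.54 over the leucine arrays. Glycolysis, fructose and glycogen metabolism (32 of 40 measured) had a median of -0.179, with 7 higher, 25 lower and 0 at an unadjusted p under 0.05, and leaving out casein replicate 4 or casein replicate 2 gave -0.285 or -0.063.

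Insulin and growth hormone signalling centred near 0. Insulin signalling (25 of 29 measured) had a median of 0.070. The adaptor gene Sh2b1 (-0.26) was its 1 member lower at an unadjusted p under 0.05 (4.00%, against 1.92% of all genes). Insr, the insulin receptor, differed by -0.24, and by 0.01 in its second probe set. Igfbp1, a binding protein that insulin represses, had signals of 8.13, 8.53, 12.13 and 11.16 with casein and 12.08, 11.12, 12.52 and 11.65 with leucine (1.86 ± 0.957 SE, limma adjusted p = 0.999). The leucine arrays all stood high, and the casein arrays split between replicates 1 and 2, which were low, and replicates 3 and 4, which were as high as with leucine. Igf1 differed by 0.01. Growth hormone, IGF and sex-biased liver genes (24 of 29 measured) had a median of 0.092, with Cyp2c13, a male-specific cytochrome P450, higher by 0.55 ± 0.202 (SE).

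**Figure D4:**
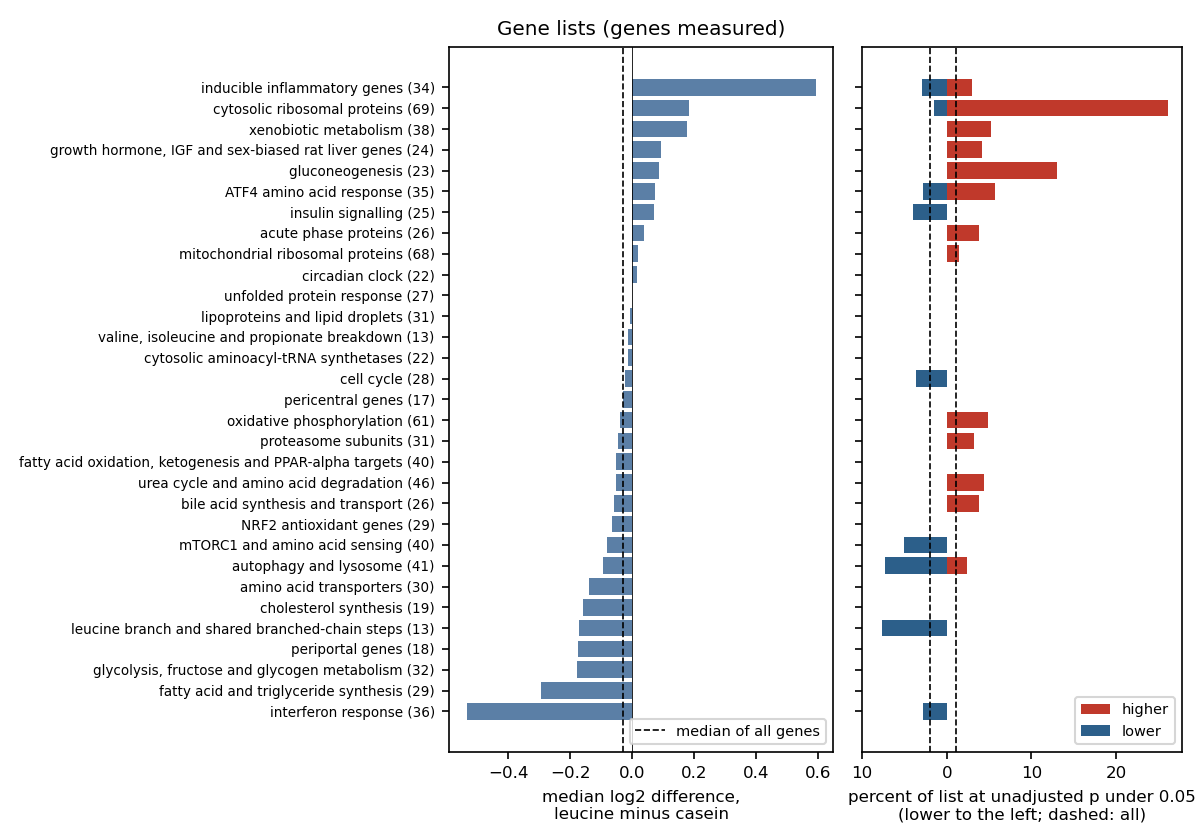
The median log2 difference of each of the 31 pathway lists, leucine minus casein (left), and the percent of its genes at an unadjusted p under 0.05, lower to the left and higher to the right (right panel), with dashed lines at the values for all genes. Cytosolic ribosomal proteins have the largest share upward (26.1%), and inducible inflammatory genes (0.592) and the interferon response (-0.534) have the medians farthest from 0.

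Inducible inflammatory genes and interferon-stimulated genes had the widest medians, of opposite sign, and few members at a small p. Inflammatory genes (34 of 35 measured) had a median of 0.592, with 30 higher and 4 lower. At an unadjusted p under 0.05, 1 was higher and 1 lower (2.94% each, against 1.08% and 1.92% of all genes). Egr1, an immediate early transcription factor, stood at 4.62, 6.11, 6.45 and 5.45 with casein and 8.08, 6.46, 8.00 and 8.32 with leucine. The gap between the groups, from casein replicate 3 to leucine replicate 2, was narrow (2.06 ± 0.685 SE, limma adjusted p = 0.999). Tlr4, the receptor for bacterial lipopolysaccharide, differed by -0.62 ± 0.278 (SE). The cytokine gene Il1b stood at 5.75, 5.42, 8.34 and 7.29 with casein and 6.99, 8.88, 9.58 and 7.60 with leucine (1.56 ± 0.883 SE), and the diets overlapped widely.

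The interferon response (36 of 42 measured) had a median of -0.534, with 5 higher and 31 lower. At an unadjusted p under 0.05, 0 were higher and 1, Trim25, was lower (2.78%, against 1.92% of all genes). The median was -0.067 without casein replicate 3. That array had a mean of 1.42 over the list, against -0.46 to -0.24 in the other casein arrays and -1.09 to 0.18 in the leucine arrays. The inflammatory median was 1.21 without casein replicate 3 and 0.167 without leucine replicate 3, and the list's per-array means were -1.18, -1.17, 1.21 and -0.33 with casein and -0.74, 0.35, 1.42 and 0.11 with leucine. Neutrophil markers (13 of 15 measured) had a median of 0.296, with 12 higher, 1 lower and 0 at an unadjusted p under 0.05. Their per-array means were -0.95, -0.79, 0.73 and -0.16 with casein and -0.90, -0.41, 1.04 and 0.45 with leucine, and the median was -0.019 without leucine replicate 3. Casein replicate 3 and leucine replicate 3 were thus highest in their diet for both lists. The part of neutrophils in the inflammatory differences was not tested. Kupffer cell and macrophage markers had a median of 0.071, and acute phase proteins (26 of 31 measured) of 0.036, with Apcs, serum amyloid P, higher by 0.61 ± 0.191 (SE).

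**Figure D5:**
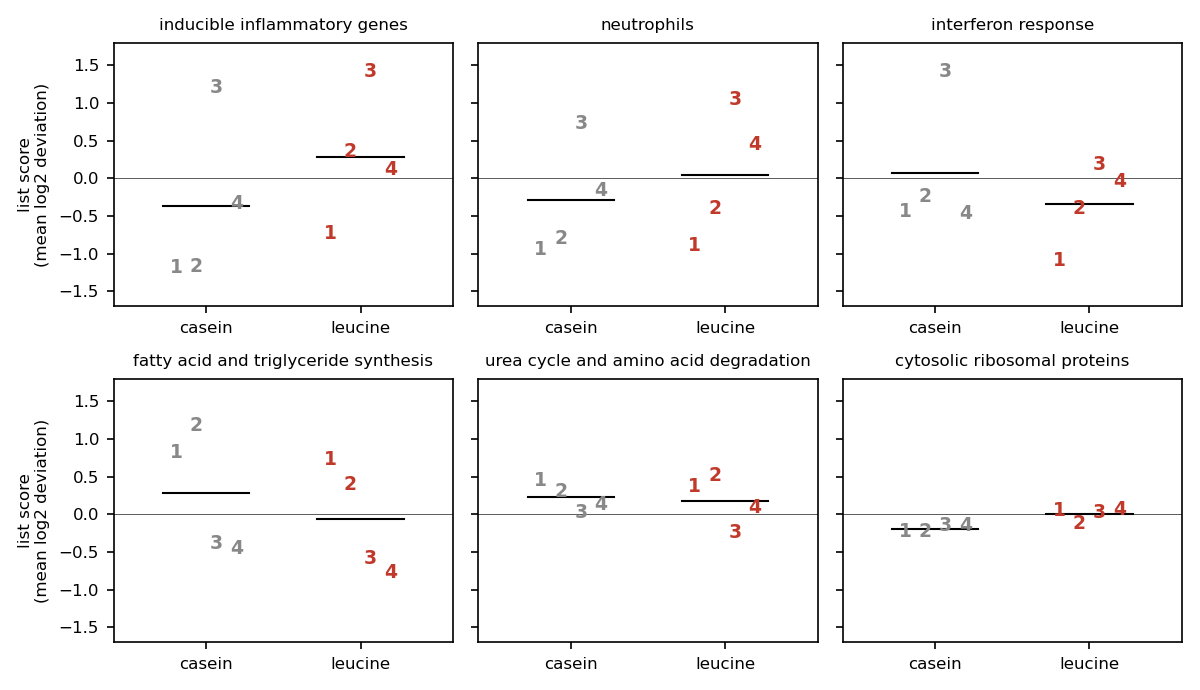
The mean log2 deviation of the genes of 6 lists in each array, each gene centred on its mean over the 12 arrays, by diet, with digits for the replicate number and a bar at the mean of each diet. The ribosomal protein means of the diets do not overlap (-0.23 to -0.15 against -0.13 to 0.06), though the gap is narrow. Those of the other lists shown overlap widely. The lists shown are some of the 31 pathway and 11 marker lists whose means were taken. How many of those means would separate the diets by chance was not tested.

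Xenobiotic metabolism (38 of 45 measured) had a median of 0.176, with 29 higher and 9 lower, and 2 higher at an unadjusted p under 0.05 (5.26%, against 1.08% of all genes): Cyp2b3 (0.67 ± 0.283 SE) and the sulfotransferase gene Sult1c3 (0.42 ± 0.164 SE). The median was 0.036 without casein replicate 3. Against dairy it was 0.500, with all genes at -0.013, and 12 members were higher (31.6%, against 3.72% of all genes) and 0 lower (2.99% of all genes) at an unadjusted p under 0.05. Bile acid synthesis and transport (26 of 28 measured) had a median of -0.059, and Acox2, the peroxisomal oxidase of bile acid side chains, was higher without overlap, at 9.41 to 9.90 with casein and 10.05 to 10.45 with leucine (0.60 ± 0.210 SE). Cyp7a1, the rate-limiting enzyme of the pathway, stood at 9.92, 9.05, 5.42 and 8.78 against 9.84, 9.77, 4.72 and 6.09 (-0.69 ± 1.15 SE). Its lowest values were again in casein replicate 3 and leucine replicates 3 and 4.

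Organelle and protein turnover genes centred near 0. Mitochondrial ribosomal proteins (68 of 76 measured) had a median of 0.019. At an unadjusted p under 0.05, 1 member was higher (Mrpl32, 0.59; 1.47%, against 1.08% of all genes). This was unlike the cytosolic set in count, though that contrast between lists was not tested. Oxidative phosphorylation (61 of 67 measured) had a median of -0.040 and 3 members higher at an unadjusted p under 0.05 (4.92%, against 1.08% of all genes): Atp5po, Ndufa6 and Cox6a1, by 0.48, 0.53 and 0.31. Proteasome subunits (31 of 32 measured) had a median of -0.047 and Psmb3 higher by 0.53. Autophagy and lysosome genes (41 of 45 measured) had a median of -0.095, with 13 higher and 28 lower, and Gabarapl2, Sqstm1 and Ctsk lower (-0.58, -0.53 and -0.44; 7.32% of the list, against 1.92% of all genes) and Lamp1 higher (0.27; 2.44%, against 1.08%) at an unadjusted p under 0.05. Gabarapl2 is an autophagosome protein and Sqstm1 a cargo receptor of autophagy. The unfolded protein response, circadian clock, NRF2 antioxidant and pericentral lists had medians of -0.002, 0.015, -0.067 and -0.031 and 0 members at an unadjusted p under 0.05, and so did periportal genes, with a median of -0.175 (0.003 without leucine replicate 3 and -0.277 without leucine replicate 2). The cell cycle list had a median of -0.025, with Mcm2 at -0.41. Over all 31 lists, 925 genes were measured, and 36 were higher (3.89%, against 1.08% of all genes) and 12 lower (1.30%, against 1.92%) at an unadjusted p under 0.05. Of the 36, 18 were the cytosolic ribosomal protein genes.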

How the data were processed

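The deposited values are log2 signals, 1 per probe set and array, which the authors made in Expression Console (Affymetrix), per the submitters' processing notes. Not given in the sources used here are its version, the summarisation algorithm and a build. Medians of the columns were 4.43 to 4.62 and SDs 2.07 to 2.33, so the arrays did not share 1 distribution. Dim probe sets can understate differences, which was not tested here. Of 29214 probe sets, the 15310 with exactly 1 gene symbol in the platform annotation were tested.

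Group means over all 12 arrays were fitted with limma 3.58.1 in R 4.3.3 (two-sided), with Benjamini-Hochberg adjustment over the 15310 probe sets, after a test on simulated data. The labels do not say how the liver samples of a diet relate, so p-values measure the spread between these samples, and they give no batch. Same-numbered casein and leucine arrays deviated together from their group means (r = 0.375, 0.380, 0.532 and 0.208 for numbers 1 to 4). This pairing comes from the data, not the labels, and casein arrays matched their own number best in 2 of 4 cases. Same-numbered dairy and leucine arrays had r = 0.590, -0.304, -0.285 and 0.362 for numbers 1 to 4. For casein and dairy arrays r was 0.502, -0.505, -0.501 and -0.106, so the dairy arrays did not share the pairing. What the replicate numbers stand for is not known.

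Besides the 24 leading genes, the text names up to 2 members of each list with the smallest p, 17 measured of 20 key genes, and list members chosen after their values were seen. The members and lists were chosen with earlier results of these data known, and no list was tested as a set. Alternatives were scaling, probe set filters, limma's trend and array weights, the replicate block and leaving out each array. Leaving out both narrowest arrays, an inflammatory covariate and the block on 8 arrays were added after seeing the data.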

Additional observations from a re-analysis of the deposited data

Results flagged for a closer look

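In 12 of 280 groups of 4 arrays examined, over named genes and list means, 1 array stood far from the other 3, and chance flags about 1 in 20 groups. Of these 12 arrays 6 were casein replicate 3. In that array Acsm5 had a log2 signal of 7.69 (others 8.72 to 8.76), the urea cycle gene Otc 8.28 (9.31 to 9.38), the fission receptor gene Fis1 8.93 (9.10 to 9.13) and the glycolytic enolase gene Eno1 10.72 (11.07 to 11.09). Its mean over the amino acid transporters was 0.499 (others -0.146 to -0.067) and over the interferon response 1.42 (others -0.46 to -0.24). Leucine replicate 1 stood apart for Cox7a2l at 9.35 (others all 9.01), the kinase gene Csnk1e at 6.19 (6.42 to 6.45) and the interferon factor gene Irf9 at 6.33 (7.07 to 7.16). Leucine replicate 2 stood apart for Lzic at 5.81 (5.38 to 5.45), Egr1 at 6.46 (8.00 to 8.32) and the mean of autophagy and lysosome genes at 0.107 (-0.033 to -0.016).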

How the results depend on the processing

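The 24 leading genes kept their direction under every alternative run, and of all 98 named genes 88 did. limma called 2 probe sets without leucine replicate 2, both of Rps15a (adjusted p = 0.0429; 0.0429 to 0.692 over the arrays left out), so the range over left-out arrays was 0 to 2. The replicate block over all 12 arrays called 0 probe sets between leucine and casein and 1 between leucine and dairy. Over the 8 arrays the block called 1 between leucine and casein, Acsm5, and changed no other call between them. The count at an unadjusted p under 0.05 was 1306 over all probe sets, 1974 with array weights, 1826 without both narrowest arrays (casein replicate 4 and dairy replicate 3), 894 with the block over 8 arrays, 884 with the inflammatory mean as a covariate, and 355 to 1358 over left-out arrays, highest without casein replicate 4. The cause of these shifts was not tested. The ribosomal protein count of 18 was 30 with array weights and 10 to 24 over left-out arrays. It was 14 after quantile normalization, 20 after centring and 12 with limma's trend and robust settings. With only the arrays of the 2 diets it was 14, and with the replicate block over all 12 arrays 24.

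Of the named genes 10 changed sign under some alternative, all of them key genes. Over left-out arrays the differences ran from -0.00918 to 0.076 for Bcat2, -0.156 to 0.110 for Mtor, -0.190 to 0.549 for Asns, -0.080 to 0.506 for Trib3, -0.093 to 0.110 for Igf1, -1.24 to 0.175 for Scd, -0.528 to 0.320 for Pck1, -0.455 to 0.104 for Cpt1a and -1.65 to 0.275 for Cyp7a1. Igf1 was -0.154 with array weights and -0.093 without both narrowest arrays, and Mtor 0.00212 after centring. With the inflammatory covariate, added after seeing the data, Bcat2 was -0.00107, Mtor 0.059, Asns -0.111, Fgf21 0.130, Scd 0.069, Pck1 0.162, Cpt1a 0.075 and Cyp7a1 0.114. Without casein replicate 4 the NRF2 list median was -0.175 and that of pancreas markers 0.150.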

Other observations

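Acsm3, like Acsm5 an acyl-CoA synthetase gene for medium-chain fatty acids, was named after its values were seen. It stood at 6.82, 5.97, 6.76 and 6.07 with casein and 6.02, 7.63, 7.98 and 7.76 with leucine (0.94 ± 0.384 SE, limma adjusted p = 0.999), the opposite direction to Acsm5, and leucine replicate 1 lay within the casein range. Acsm4 was dim, with signals of 3.42 to 4.14, and differed by -0.13.

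Of marker lists not described above, lymphocytes, endothelial cells, stellate cells, cholangiocytes, adipocytes, exocrine pancreas and skeletal muscle had median differences of 0.021, 0.036, 0.017, -0.096, 0.109, 0.003 and -0.015. At an unadjusted p under 0.05, the endothelial cadherin gene Cdh5 was higher with leucine by 0.43 (1 of 12 measured, 8.33%). The stellate cell filament gene Des was higher by 0.79 (1 of 22, 4.55%), and 1.08% of all genes were higher at that p. Both genes had a limma adjusted p = 0.999. The endothelial list had 8 members higher and 4 lower, and the stellate list 11 higher and 11 lower.

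Among 13904 probe sets without exactly 1 gene symbol, 791 (5.69%) had an unadjusted p under 0.05, and 0 passed the adjusted threshold over all probe sets. Their mean log2 signal had a median of 3.86, against 5.33 for the tested probe sets.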
